A study of Rattus norvegicus with 18 samples.

Results

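The genes described here are 32 genes of macrophages and other myeloid cells, measured in the kidneys of 2 rat strains. They were chosen by name, with earlier results of these data known. The names are those of surface receptors, signalling adaptors, oxidase subunits, complement and lysosomal proteins and cytoskeletal proteins of these cells. A probe set is a group of short DNA probes for the same transcript, and each gene was represented by its brightest one. Of the 32 members, 29 are among the 14218 genes that a probe set of the array names alone. Fcgr2a, Spi1 and Msr1 have none, and their levels were not analysed here. Of the 29, 25 passed a filter on dim probe sets and were tested. Cd163, Itgam, Ncf1 and Fcgr2b lay under it.

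The study measured RNA from whole kidney on 18 Affymetrix Rat Genome 230 2.0 arrays, 1 array per rat. Of these, 9 came from Dahl S (SS/Jr), an inbred strain prone to salt-induced hypertension and proteinuria, and 9 from S.SHR(2), a congenic made from the SS/Jr and SHR/NHsd strains that the study's title calls renal protective. The study's design text describes male rats of both strains at 4, 12 and 20 weeks of age, with 3 per strain at each age. The labels give an age for 2 rats only, Dahl S replicate 2 at 4 weeks and Dahl S replicate 4 at 12 weeks, both male and on a low-salt diet with 0.3% NaCl; sex and diet are not given for the other rats. The arrays lie in the deposit as 3 runs of 6, each with 3 Dahl S and then 3 S.SHR(2) rats, and these runs are called deposit blocks 1, 2 and 3. A deposit block is a position in the deposit and not a labelled age or batch, so that age, handling and scanning cannot be told apart in any difference between blocks. The labels give each rat its own title, but no litter or date.

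Macrophages reside in the kidney between the tubules and are joined by blood monocytes when the tissue is injured. They take up antibody-coated particles through Fc receptors, which signal through small adaptor proteins, and they make superoxide with the phagocyte NADPH oxidase. Many of their genes are known targets of PU.1, the transcription factor that Spi1 encodes, which binds purine-rich DNA around a GGAA core. Several of the genes, such as Ptprc, Coro1a and Cd53, are also expressed in lymphocytes. In RNA from whole kidney, fewer cells of a type and less RNA per cell cannot be told apart.

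The promoters of the members whose levels changed with the smallest p are shown because PU.1 is itself a member. RefSeq promoters (build GRCr8) were found for 21 of the 32 members, and the 250 bases before the annotated start were read. Of the 7 members followed rat by rat below, Aif1 and Lcp1 had no entry. The promoters of Cd53 (chr2:197087897-197088146, minus strand), Ctss (chr2:185775146-185775395, plus strand), Fcgr3a (chr13:85782386-85782635, plus strand), Cybb (chrX:16065066-16065315, minus strand) and Coro1a (chr1:190731104-190731353, minus strand) are written 5′ to 3′ on the gene's strand, with any PU.1 motif GAGGAAG, or its reverse complement, in capitals.
Cd53: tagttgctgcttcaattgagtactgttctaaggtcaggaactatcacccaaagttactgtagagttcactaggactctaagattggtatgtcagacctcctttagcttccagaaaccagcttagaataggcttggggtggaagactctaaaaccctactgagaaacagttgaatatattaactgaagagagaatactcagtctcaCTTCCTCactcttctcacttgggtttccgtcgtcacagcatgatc
Ctss: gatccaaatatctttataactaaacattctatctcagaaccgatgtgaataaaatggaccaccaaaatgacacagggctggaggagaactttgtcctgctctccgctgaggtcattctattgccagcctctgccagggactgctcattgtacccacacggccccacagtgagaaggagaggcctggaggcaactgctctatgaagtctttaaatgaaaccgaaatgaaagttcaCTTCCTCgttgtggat
Fcgr3a: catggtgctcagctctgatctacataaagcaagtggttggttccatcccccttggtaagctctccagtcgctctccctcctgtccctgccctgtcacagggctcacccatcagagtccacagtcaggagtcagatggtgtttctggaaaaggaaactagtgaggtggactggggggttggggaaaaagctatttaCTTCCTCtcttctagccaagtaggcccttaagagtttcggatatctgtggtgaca
Cybb: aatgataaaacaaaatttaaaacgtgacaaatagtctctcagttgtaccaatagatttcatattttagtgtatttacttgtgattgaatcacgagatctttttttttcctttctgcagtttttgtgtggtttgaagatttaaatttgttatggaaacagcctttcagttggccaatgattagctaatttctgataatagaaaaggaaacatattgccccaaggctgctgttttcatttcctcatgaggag
Coro1a: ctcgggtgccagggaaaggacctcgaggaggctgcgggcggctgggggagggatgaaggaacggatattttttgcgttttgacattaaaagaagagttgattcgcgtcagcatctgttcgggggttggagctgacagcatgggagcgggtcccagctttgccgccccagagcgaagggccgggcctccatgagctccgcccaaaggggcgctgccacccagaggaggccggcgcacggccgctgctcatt
The motif lay on the opposite strand in Cd53, Ctss and Fcgr3a, with its far end 45, 16 and 55 bases before the start. These letters were not in the windows of Cybb and Coro1a. Over both strands, GAGGAAG was in 10 of the 21 member promoters (47.6%) and in 10.2% of 33469 rat promoters of the same length. The other promoters that held it were those of Csf1r, Itgam, Cd14, Adgre1, Laptm5, Mrc1 and Fcgr2a. A pair of other motifs was searched in the same windows. The AP-1 motif TGACTCA, on both strands, was in 1 of 21 member promoters (4.76%, Cd68) and in 4.05% of all promoters. The TATA motif TATAAA, on the gene's strand, was in 1 of 21 (4.76%, Laptm5) and in 8.06% of all. These are matches of letters and were not tested as binding sites. The members were chosen by name as genes of myeloid cells. Whether the motif went with any change between deposit blocks was not tested.

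From deposit block 1 to block 3 most members rose in both strains. Since the members were chosen with earlier results of these data known, their shares beside those of all genes are not an independent test. In Dahl S, 18 of the 25 tested members were higher in block 3 and 0 were lower at an adjusted p under 0.05, where 11.9% of all 10482 genes tested were higher and 11.0% lower. The S.SHR(2) rats had 19 of 25 higher and 0 lower, where 15.7% of all genes were higher and 13.0% lower, or 22.5% and 8.3% with arrays centred on their medians. Over the 25 members the log2 change had a median of 1.02 in Dahl S and 1.01 in S.SHR(2), beside 0.02 over all genes in each strain. A log2 change of 1 is a doubling, and changes were fitted with limma on log2(intensity + 16), which understates the change of dim genes. The 3 rats of block 3 all lay above the 3 of block 1 for 19 of 25 members in each strain, where this held for 20.1% of all genes in Dahl S and 21.2% in S.SHR(2). The calls were shared by 16 members: Aif1, Cd53, Cd68, Coro1a, Csf1r, Ctss, Cybb, Fcer1g, Fcgr3a, Itgb2, Laptm5, Lcp1, Lyz2, Pld4, Ptprc and Tyrobp. How many of all genes were called in both strains was not counted, so this number has no background.

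**Figure D1:**
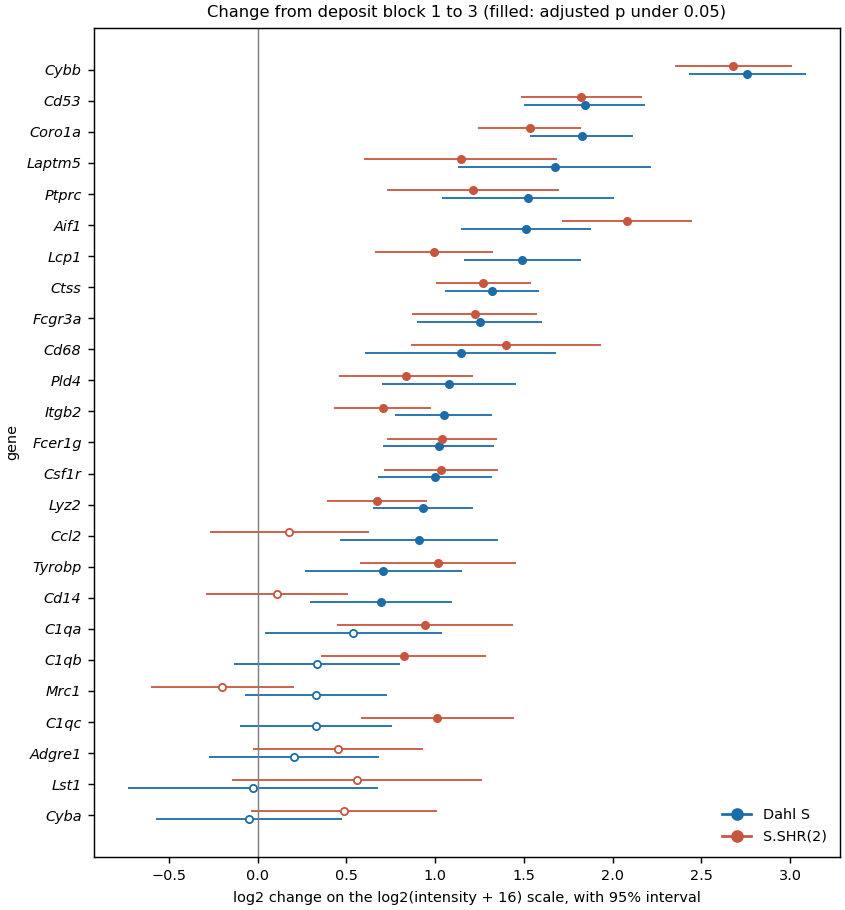
Log2 change from deposit block 1 to block 3 (x axis, on the log2(intensity + 16) scale) for the 25 tested members (y axis), in Dahl S (blue) and S.SHR(2) (red), with 3 rats in each block. Points are limma estimates, lines their 95% intervals, and filled points have an adjusted p under 0.05; Cybb lies farthest to the right at 2.76 and 2.68.

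The largest change was that of Cybb, the membrane-bound catalytic subunit of the phagocyte NADPH oxidase. Its deposited intensity, a linear value scaled alike on every array, was 37.7, 40.3 and 57.7 in the Dahl S rats of block 1, 96.2, 100 and 79.8 in block 2, and 437.8, 380.7 and 337.5 in block 3. In S.SHR(2) it was 26.4, 41.3 and 33.8 in block 1, 57.8, 76.1 and 69.6 in block 2, and 261.6, 329.8 and 289.4 in block 3. The 3 blocks did not overlap in either strain, and most of the rise came between blocks 2 and 3. The log2 change from block 1 to 3 was 2.76 ± 0.16 (SE; 6.78-fold, adjusted p = 1.1e-10) in Dahl S and 2.68 ± 0.16 (6.41-fold, adjusted p = 1.3e-10) in S.SHR(2). A second, dimmer probe set of Cybb gave 1.36 and 1.06, in the same direction but smaller. Cyba, the partner subunit of Cybb in the membrane, was not called, with log2 changes of -0.05 ± 0.25 for Dahl S and 0.48 ± 0.25 for S.SHR(2). With the beta-actin 3′/5′ ratio as a covariate, a measure of RNA integrity, the change of Cyba was -0.24 in Dahl S (adjusted p = 0.044) and -0.25 in S.SHR(2), and with arrays centred on their medians it was called higher in S.SHR(2) (0.66, adjusted p = 0.034). Ncf1, a cytosolic subunit of the same oxidase, lay under the filter, between 1 and 26.3 on all arrays.

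**Figure D2:**
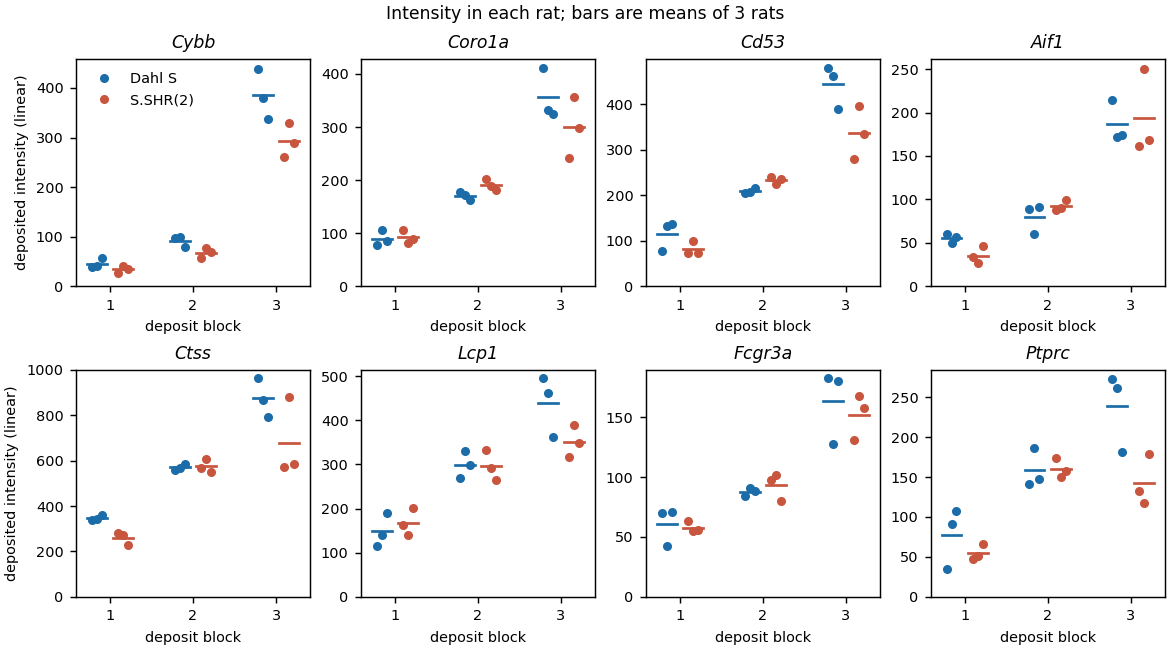
Deposited intensity (y axis, linear, from 0) in each of 18 rats by deposit block (x axis) for the 7 members followed rat by rat and for Ptprc. Ptprc was added after its values were seen, and its strain difference was not called. Dots are rats, bars are means of 3 rats, blue is Dahl S and red is S.SHR(2); for Cybb the block 3 rats lie between 261.6 and 437.8, above all rats of blocks 1 and 2.

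Coro1a and Lcp1 encode actin-binding proteins of leukocytes, and both were higher in block 3. Coro1a intensity in Dahl S was 78, 105.9 and 84.5 in block 1, 176.8, 172.7 and 162.6 in block 2, and 411.4, 332.5 and 325.1 in block 3. The S.SHR(2) rats had 105.1, 80.7 and 89.4, then 202.8, 187.9 and 182.1, then 241.8, 357.5 and 298.1 for Coro1a. The blocks were apart in both strains, with log2 changes from block 1 to 3 of 1.83 ± 0.14 (adjusted p = 5.9e-09) and 1.53 ± 0.14 (adjusted p = 6.6e-08). Lcp1, also called L-plastin, had 114.2, 140.1 and 190.7, then 268.7, 329.7 and 298.2, then 495.8, 462.3 and 361.9 in Dahl S. In S.SHR(2) Lcp1 had 162.7, 139.8 and 201.4, then 332.8, 293 and 265.6, then 315.9, 388.3 and 348.8. Blocks 2 and 3 of Lcp1 overlapped in S.SHR(2) but not in Dahl S. Its changes from block 1 to 3 were 1.49 ± 0.16 (adjusted p = 7.5e-07) in Dahl S and 0.99 ± 0.16 (adjusted p = 1.0e-04) in S.SHR(2), and the difference between them was not called (-0.50 ± 0.22, adjusted p = 0.47).

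Aif1 encodes IBA1, a calcium-binding protein used as a macrophage marker. Its intensity in Dahl S was 60.6, 50.1 and 56.7 in block 1, 89.2, 59.8 and 91 in block 2, and 214, 171.7 and 173.7 in block 3. The S.SHR(2) rats had 33.5, 26.2 and 45.9, then 88, 90.6 and 98.8, then 161.7, 250.4 and 168.8 for Aif1. In block 1 every S.SHR(2) rat lay below every Dahl S rat. This held there for 4 of 25 members (Aif1, C1qb, C1qc and Ctss) and for 443 of 10482 genes. The reverse held for 1 member (Itgb2) and for 721 genes. In block 3 the strains overlapped for Aif1. The changes of Aif1 from block 1 to 3 were 1.51 ± 0.18 (adjusted p = 2.2e-06) and 2.08 ± 0.18 (adjusted p = 2.3e-08), a difference of 0.57 ± 0.25 that was not called (adjusted p = 0.45).

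Among surface proteins, Cd53, a tetraspanin of leukocytes, rose in both strains. Cd53 intensity was 76.5, 132.6 and 137.5 in block 1 of Dahl S, 203.9, 207.8 and 216.7 in block 2, and 479.3, 463.1 and 388.7 in block 3. In S.SHR(2), Cd53 was 73.4, 100.4 and 73.1, then 239.4, 225.6 and 234.7, then 278.9, 395.9 and 334. The blocks were apart in both strains, and the changes from block 1 to 3 were 1.84 ± 0.16 (adjusted p = 5.6e-08) and 1.82 ± 0.16 (adjusted p = 5.3e-08). Ptprc, the leukocyte phosphatase CD45, changed by 1.52 ± 0.23 and 1.21 ± 0.23. Itgb2, the beta chain that pairs with Itgam in the complement receptor, changed by 1.05 ± 0.13 in Dahl S and 0.70 ± 0.13 in S.SHR(2), while Itgam itself was between 1.8 and 18.8 on all arrays and lay under the filter. Csf1r, the receptor for the growth factor that maintains macrophages, rose from 131.7 ± 13.1 (SD, n = 3) to 280.2 ± 18.5 in Dahl S and changed by 1.04 ± 0.15 in S.SHR(2). Adgre1, the gene of the F4/80 antigen, was not called (0.21 ± 0.23 and 0.45 ± 0.23), although it was called in S.SHR(2) with array weights (0.65, adjusted p = 0.0066) and with the actin covariate (0.90, adjusted p = 0.0058). The mannose receptor Mrc1 was not called either (0.33 ± 0.19 and -0.20 ± 0.19), and the scavenger receptor Cd163 was between 0.4 and 15.6 on all arrays.

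Fcgr3a, Fcer1g and Tyrobp rose from block 1 to 3 in both strains. Fcgr3a encodes a low-affinity receptor for immunoglobulin G, and its intensity in Dahl S was 70, 42.1 and 71.1 in block 1, 84.1, 90.9 and 88.5 in block 2, and 182.9, 128.1 and 180.7 in block 3. The S.SHR(2) rats had 63.1, 54.7 and 55.5, then 97.4, 101.6 and 80.2, then 130.8, 167.6 and 158.2 for Fcgr3a. The blocks were apart in both strains, with changes from block 1 to 3 of 1.25 ± 0.17 (adjusted p = 1.4e-05) and 1.22 ± 0.17 (adjusted p = 1.9e-05). Fcer1g, the signalling chain of this receptor, changed by 1.02 ± 0.15 and 1.04 ± 0.15. Tyrobp, the adaptor DAP12, changed by 0.71 ± 0.21 in Dahl S (adjusted p = 0.019) and 1.02 ± 0.21 in S.SHR(2) (adjusted p = 0.0012), and its call in Dahl S was lost without Dahl S replicate 2 (adjusted p = 0.10) or replicate 8 (adjusted p = 0.075). Fcgr2b, the inhibitory receptor, lay under the filter, so that it was tested only without it. Its intensity was 4, 1 and 2.7 in block 1 of Dahl S and 96.8, 98.4 and 61.3 in block 3. In S.SHR(2), Fcgr2b was 12.9, 9 and 7.2 in block 1 and 29.4, 77.4 and 46.1 in block 3, so that blocks 1 and 3 were apart in both strains. Without the filter its changes were 2.40 ± 0.24 (adjusted p = 1.3e-06) and 1.44 ± 0.24 (adjusted p = 3.3e-04). It is a member singled out after its values were seen.

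Lysosomal members rose as well. Ctss, a cysteine protease that processes antigen, had intensities in Dahl S of 337.6, 341.2 and 358.9 in block 1, 559.9, 569.4 and 584.7 in block 2, and 964.4, 869.3 and 793.2 in block 3. In S.SHR(2) the Ctss values were 280.7, 274 and 227.2, then 566.6, 608.9 and 550.6, then 571.1, 879.5 and 585.5. Of the S.SHR(2) rats of block 3, only 1 lay above block 2 in full, and without that rat, replicate 8, the change of Ctss from block 2 to 3 turned from 0.17 to -0.02. The changes from block 1 to 3 were 1.32 ± 0.13 (adjusted p = 2.2e-07) in Dahl S and 1.27 ± 0.13 (adjusted p = 3.6e-07) in S.SHR(2). Cd68, a lysosomal membrane protein, changed by 1.14 ± 0.26 and 1.40 ± 0.26. Lyz2, the lysozyme of macrophages, changed by 0.93 ± 0.14 and 0.67 ± 0.14, from 1605 ± 262 (SD, n = 3) in block 1 to 2836 ± 107 in block 3 of Dahl S. Laptm5, a lysosomal membrane protein of blood cells, changed by 1.67 ± 0.26 and 1.14 ± 0.26, and its other probe set gave 0.84 and 0.81. Pld4, an endolysosomal nuclease, changed by 1.08 ± 0.18 and 0.84 ± 0.18.

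C1qa, C1qb and C1qc encode the chains of C1q, which starts the classical complement pathway. All 3 were called in S.SHR(2), with changes from block 1 to 3 of 0.94 ± 0.24, 0.82 ± 0.22 and 1.01 ± 0.21, and none in Dahl S, with 0.54 ± 0.24, 0.33 ± 0.22 and 0.33 ± 0.21. The test of the difference called none of them, the nearest being C1qc (0.68 ± 0.29, adjusted p = 0.45). C1qc intensity in block 1 was 133.8, 112.3 and 193.8 in Dahl S and 100, 68.7 and 93.4 in S.SHR(2), so that the strains were apart there. In block 3 the strains overlapped, with 217, 190.2 and 154.4 in Dahl S and 151.8, 236.3 and 189.1 in S.SHR(2). C1qb lost its call without S.SHR(2) replicate 2 (adjusted p = 0.066) or 8 (adjusted p = 0.058) or with the actin covariate (adjusted p = 0.060), and C1qa was called in Dahl S with array weights (0.72, adjusted p = 0.010) or without Dahl S replicate 3 (0.92, adjusted p = 0.0021).

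Ccl2, a chemokine that attracts monocytes, and Cd14, a co-receptor for lipopolysaccharide, were called in Dahl S and not in S.SHR(2). Ccl2 intensity in Dahl S was 96.9, 121.6 and 88.2 in block 1 and 233.6, 212.9 and 174.9 in block 3, with no overlap. In S.SHR(2), Ccl2 was 114.5, 94.7 and 202.2 in block 1 and 109.6, 198.7 and 147 in block 3, with overlap. Its changes were 0.91 ± 0.21 (adjusted p = 0.0038) and 0.18 ± 0.21 (adjusted p = 0.57), and the difference of -0.73 ± 0.30 was not called (adjusted p = 0.44). Cd14 changed by 0.69 ± 0.19 in Dahl S (adjusted p = 0.012; 0.10 without replicate 7) and by 0.11 ± 0.19 in S.SHR(2), a difference of -0.58 ± 0.27 (adjusted p = 0.48). Lst1, a small leukocyte protein, was not called in either strain (-0.03 ± 0.34 and 0.56 ± 0.34), but was called in S.SHR(2) with array weights (adjusted p = 0.0089) and when the pair of arrays with the highest GAPDH 3′/5′ ratios was left out (0.93, adjusted p = 0.039).

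Both steps between neighbouring blocks were tested too. From block 1 to 2, 11 of 25 members were higher in Dahl S and 14 in S.SHR(2), where 5.75% and 5.68% of all genes were. From block 2 to 3, 13 members were higher in Dahl S and 5 in S.SHR(2), where 9.6% and 8.74% of all genes were, and no member was called lower in any of these 4 comparisons, where 5.09% and 8.74% (Dahl S) and 5.91% and 6.3% (S.SHR(2)) of all genes were. Dahl S had 7 members called in both steps (Cd53, Coro1a, Csf1r, Ctss, Cybb, Fcer1g and Lcp1), and S.SHR(2) had 4 (Aif1, Coro1a, Cybb and Fcgr3a). How many of all genes were called in both steps was not counted, so 7 and 4 have no background. Not all calls of these members held under the alternatives in processing that were run for the 2 steps. In Dahl S, Csf1r lost its first step under 21 of them (adjusted p up to 0.21, without Dahl S replicate 5) and its second without replicate 4, 7 or 9 (0.078 to 0.13). Fcer1g lost its second step under 13 (adjusted p up to 0.14, without Dahl S replicate 7) and its first under 4, and Lcp1 lost its second without Dahl S replicate 4, 6, 7 or 8 (0.059 to 0.13). In S.SHR(2), Fcgr3a lost its first step under 6, among them those without replicate 2, 3, 4 or 5 (0.084 to 0.12), and its second without replicate 6 (0.059) or 8 (0.065). Coro1a lost its second step without S.SHR(2) replicate 8 (adjusted p = 0.056). The 2 steps of a strain share the rats of block 2, and whether the second step differed between the strains was not tested. The 13 calls fell to 7 without Dahl S replicate 7. The 5 calls of S.SHR(2) became 3 without replicate 8, 8 without replicate 7, and 9 with arrays centred on their medians, where 18.4% of all genes were called higher in place of 8.74%, 3.88% lower in place of 6.3%, and the median over all genes was 0.15. Cybb had the largest second step in each strain, 1.88 ± 0.16 and 1.90 ± 0.16. Mrc1 was called from block 2 to 3 in Dahl S (0.55 ± 0.19, adjusted p = 0.050), just inside the threshold. That call was lost under 16 alternatives, 14 of which left out 1 rat, with 0.36 (adjusted p = 0.25) without Dahl S replicate 6 and 0.43 (adjusted p = 0.22) without Dahl S replicate 7.

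The strains were compared within each deposit block, with S.SHR(2) minus Dahl S as the difference. No member was called in block 1, 2 or 3 or over the blocks together, where limma called 0.0859%, 0.0668%, 0.391% and 0.572% of all genes. At an unadjusted p under 0.05 there were 6, 1, 7 and 7 members of 25, where 10.1%, 3.1%, 12.3% and 10.8% of all genes were. In the interaction of strain with block 0 members were called, as were 0.0% of all genes, and 5 members had an unadjusted p under 0.05, where 9.97% of all genes did. The difference was negative for 18 of 25 members in block 1, 12 in block 2 and 19 in block 3, with medians of -0.23, 0.0088 and -0.16. The medians over all genes were 0.021, 0.0025 and 0.032, and the share of all genes with a negative difference was not counted. Single rats moved the medians of the members. In block 1 the members' median was -0.052 without Dahl S replicate 3. In block 3 it was -0.026 without Dahl S replicate 7, with 13 members negative, -0.063 without S.SHR(2) replicate 7, -0.24 without Dahl S replicate 9 and -0.33 without S.SHR(2) replicate 8. With arrays centred on their medians the block 3 median was -0.035, beside 0.13 over all genes, and with array weights it was -0.29. The 95% intervals of the single differences in block 3 reached 0.27 to 0.71 to each side, which is the precision that 3 rats a group gave.

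Ctss had the smallest adjusted p in block 3, with a difference of -0.45 ± 0.13 (adjusted p = 0.14), and the strains overlapped there through S.SHR(2) replicate 8. Without that rat the difference was -0.64 (adjusted p = 0.010), and over the blocks it was -0.34 (adjusted p = 0.0068) in place of -0.28 ± 0.07 (adjusted p = 0.11). Cybb differed by -0.36 ± 0.16 in block 3 and by -0.34 ± 0.09 over the blocks (adjusted p = 0.11). Ptprc intensity in block 3 was 272.7, 261.5 and 181.4 in Dahl S and 132.3, 118.1 and 178.9 in S.SHR(2), close to each other but apart, with a difference of -0.62 ± 0.23 (adjusted p = 0.28). Mrc1 was 99.7, 78.4 and 68.9 in Dahl S and 37.8, 40.4 and 55.5 in S.SHR(2), also apart, with -0.56 ± 0.19 (adjusted p = 0.23). Every S.SHR(2) rat of block 3 lay below every Dahl S rat for 5 members (Ptprc, Lyz2, Cybb, Mrc1 and Cd53) and above for 0, where this held for 7.93% and 12.9% of all genes.

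**Figure D3:**
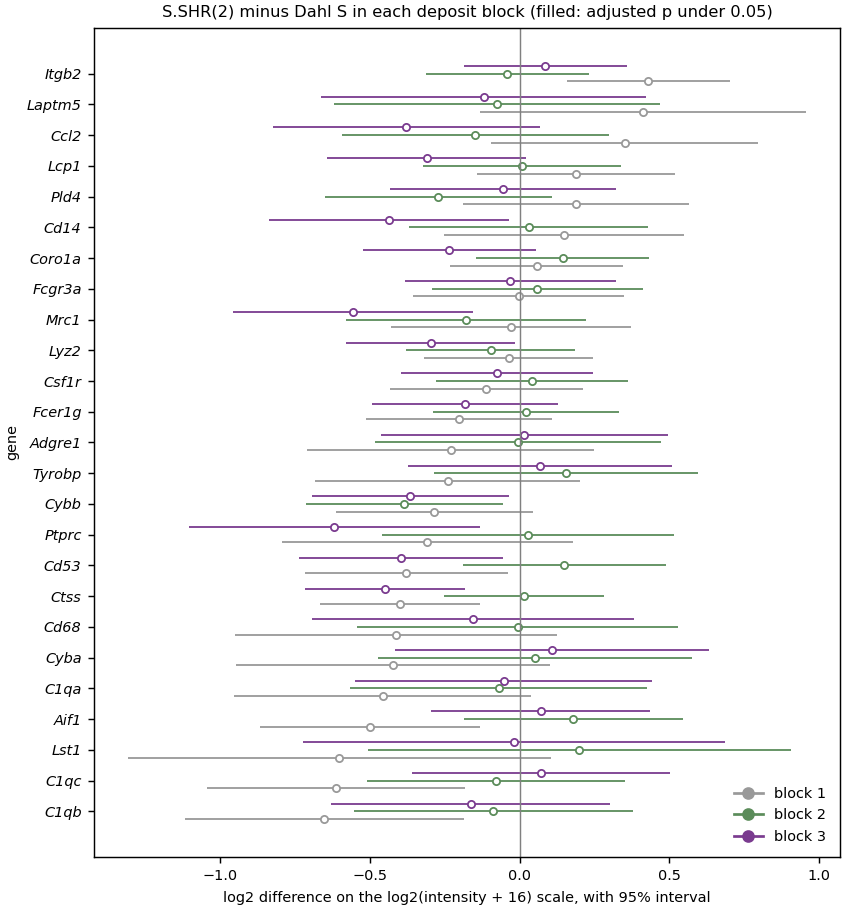
Log2 difference S.SHR(2) minus Dahl S (x axis, on the log2(intensity + 16) scale) of the 25 tested members (y axis) in deposit blocks 1 (grey), 2 (green) and 3 (purple), with 3 rats per strain in each. Points are limma estimates with 95% intervals, and all are open because no adjusted p was under 0.05.

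When limma weighted the arrays by their fit, 9 of 25 members were called lower in S.SHR(2) in block 3 (Cd14, Ptprc, Lyz2, Cybb, Mrc1, Ctss, Cd53, Coro1a and Ccl2). In either direction, 858 of all 10482 genes were called with weights. The unweighted fit called 0 members and 41 genes. How many of the 858 were lower is not given here. Over the blocks, weighting called Ctss (-0.32, adjusted p = 0.0066). Without Dahl S replicate 1, Ptprc was called over the blocks (-0.43, adjusted p = 0.041). Without Dahl S replicate 2, Laptm5 was called higher in S.SHR(2) in block 1 (0.92, adjusted p = 0.0094). Ctss and Cd53 lie on chromosome 2, the chromosome named in S.SHR(2), and their place relative to the congenic segment was not analysed here.

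Other genes of the same cells were taken as lists, also with earlier results of these data known. Over all genes, 11.9% were higher from block 1 to 3 in Dahl S and 15.7% in S.SHR(2), and 11.0% and 13.0% were lower. Of 35 further macrophage and myeloid genes tested, 19 were higher and 1 was lower (Csf2rb) from block 1 to 3 in each strain, with medians of 0.53 and 0.60. Clec7a, the receptor for fungal beta-glucan, changed by 2.12 ± 0.15 in Dahl S and 1.77 ± 0.15 in S.SHR(2). Gpnmb, a glycoprotein of lipid-laden macrophages, changed by 1.99 ± 0.20 and 1.75 ± 0.20, Mmp12, the macrophage elastase, by 1.91 ± 0.18 and 1.13 ± 0.18, and Rac2, a GTPase of the oxidase, by 1.38 ± 0.13 and 1.25 ± 0.13. Of 17 chemokine and growth factor genes, 8 were higher in Dahl S and 10 in S.SHR(2), and none was lower. Ccl21, a chemokine of lymphatic vessels, changed by 2.60 ± 0.22 and 2.10 ± 0.22, and Cxcl16 by 1.04 ± 0.11 and 0.96 ± 0.11. Of 19 lysosome and phagosome genes, which kidney tubules also express, 6 were higher and 1 was lower in each strain, with medians of 0.20 and 0.19. The gene called lower was Ctsh in Dahl S and Gla in S.SHR(2). Npc2, a cholesterol carrier of the lysosome, changed by 0.51 ± 0.11 and 0.70 ± 0.11, and Gla by 0.11 ± 0.10 and -0.39 ± 0.10. Ctsb changed by 0.29 ± 0.06 and 0.24 ± 0.06, and Lipa by 0.39 ± 0.09 in each strain. None of these lists had a gene called in a strain difference, where at most 0.572% of all genes were called.

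Markers of lymphocytes moved with the members. The neutrophil genes all lay under the filter, and only their summed deposited intensities can be given. The part of other cells in the changes was not tested. Of 10 lymphocyte genes tested, 5 were higher in Dahl S and 6 in S.SHR(2), where 11.9% and 15.7% of all genes were. Among them were Lck (1.03 ± 0.17 and 1.13 ± 0.17) and Cd3g (1.78 ± 0.38 and 1.56 ± 0.38). The summed intensity of 23 lymphocyte genes went from 714 to 902 in block 1 to between 1353 and 1374 in block 3 of Dahl S, and from between 766 and 920 to between 1023 and 1326 in S.SHR(2). Cd3d, Cd3e, Cd8a and Ms4a1 were among 13 lymphocyte genes under the filter. The 29 measured members summed to between 5419 and 6049 in block 1 and between 9660 and 11300 in block 3 of Dahl S, and to between 4798 and 4987 and between 7999 and 10748 in S.SHR(2). None of 7 neutrophil and 6 mast cell genes passed the filter. The neutrophil genes summed to between 89.8 and 137.8 in block 1 and between 63.0 and 76.5 in block 3 of Dahl S. In S.SHR(2) they summed to between 114.5 and 135.6 in block 1 and between 52.3 and 54.5 in block 3. Over all arrays these sums lay between 31.7 and 137.8. They are sums of dim values that were not normalized, and their fall was not tested. The share of probe sets under 16 was 24.1% to 26.6% on block 1 arrays and 24.1% to 30.8% on block 3 arrays. Itgax, the only gene of the dendritic cell list tested, was higher in both strains (0.73 ± 0.17 and 0.96 ± 0.17). Flt3, Clec9a and Batf3 of that list lay under the filter, and 1 gene cannot show a change of the cell type.

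Tubular injury genes had medians above those of the members, 1.71 in Dahl S and 1.30 in S.SHR(2). Of 8 tested, 7 were higher in Dahl S and 5 in S.SHR(2), where 11.9% and 15.7% of all genes were. Havcr1, the gene of kidney injury molecule KIM-1, changed by 4.66 ± 0.29 and 3.11 ± 0.29, and Lcn2, the gene of NGAL, by 3.27 ± 0.25 and 2.38 ± 0.25. In block 3 their differences were -1.18 ± 0.29 (adjusted p = 0.082) and -0.79 ± 0.25 (adjusted p = 0.19). Cp, ceruloplasmin, was the only gene of the list called lower in S.SHR(2) there, where 0.391% of all genes were called in either direction. Of 9 endothelial genes, 1 was higher (Vwf) in each strain. In Dahl S 7 were lower and in S.SHR(2) 5, where 11.0% and 13.0% of all genes were lower. Of 11 kidney genes, 2 were higher and 3 lower in each strain. These counts are small and were not tested against the shares over all genes. Both erythroid genes tested were lower in Dahl S and 1 (Alas2) in S.SHR(2).

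**Figure D4:**
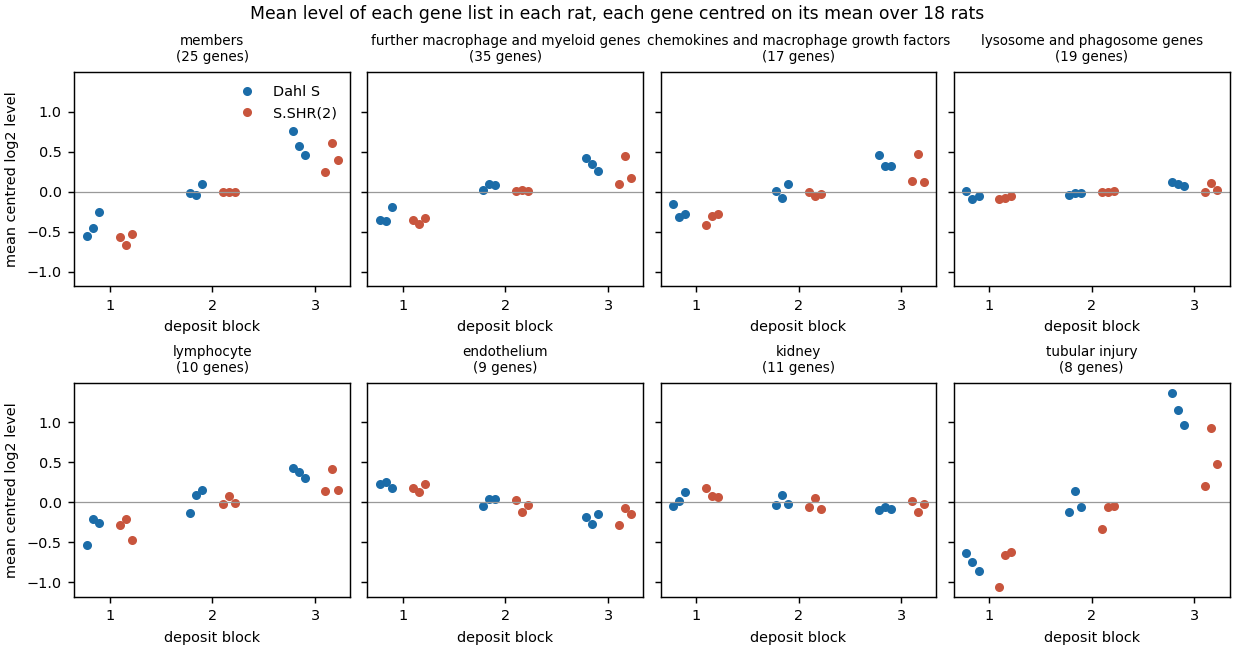
Mean log2 level of each gene list in each rat (y axis, each gene centred on its mean over 18 rats) by deposit block (x axis), Dahl S in blue and S.SHR(2) in red; the panel headed members holds the 25 tested members. Lists with under 8 tested genes are left out; the members, further myeloid genes, lymphocyte and tubular injury lists lie higher in block 3 than in block 1 in every rat.

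The arrays of block 3 differed from the others in some measures. Their highest intensity was 7508 to 9499, beside 11117 to 14648 in block 1 and 11270 to 13704 in block 2. The beta-actin 3′/5′ ratio was 2.27 to 3.004 in block 3, 2.22 to 6.83 in block 1 and 3.14 to 5.88 in block 2. With that ratio as a covariate, 18 members were higher and 1 (Cyba) lower from block 1 to 3 in Dahl S and 19 were higher in S.SHR(2), and with the 2 arrays left out whose GAPDH 3′/5′ ratios were highest 18 and 20 were higher. Both alternatives were chosen after seeing the data. The shares of all genes called under them are not given here, so these counts of members have no background. The correlation between arrays across probe sets was 0.941 to 0.987.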

How the data were processed

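Biotin-labelled RNA from whole kidney was hybridised to Affymetrix Rat Genome 230 2.0 arrays, per the labels' protocols. The authors deposited linear intensity values scaled to a trimmed mean of about 150 on every array; their software was not given in the sources used here. Intensities were read as log2(value + 16) and quantile-normalized. The 40% dimmest of 31042 probe sets were left out, after which 18626 probe sets gave 10482 genes, each by its brightest probe set annotated to that gene alone. Of the probe sets, 20826 name 1 gene, 436 several and 9780 none, and 57 control probe sets were not used. limma 3.58.1 (R 4.3.3) fitted 6 means, 2 strains by 3 deposit blocks, with an intensity trend, and p-values were Benjamini-Hochberg adjusted over all genes; a gene was called at an adjusted p under 0.05. The script was tested on simulated data. The number of arrays limits the precision. Deposit blocks follow the order of the deposit. Values in each rat are given for up to 12 members, the 6 with the smallest p from block 1 to 3 in each strain, which gave 7 in all, and for any called in a strain difference or interaction; others given rat by rat (Ptprc, Mrc1, Ccl2, C1qc and Fcgr2b) were chosen after their values were seen. Up to 4 genes were named per further list by the smallest p. The members and lists were chosen with earlier results of these data known. Alternatives changed the pseudocount, filter, normalization, variance model, array weights, probe set choice and arrays, and left out each rat. Promoters came from RefSeq (GRCr8). Figures were drawn with matplotlib 3.10.9.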

Additional observations from a re-analysis of the deposited data

Results flagged for a closer look

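Of 50 groups checked (each tested member within the 9 rats of a strain), 1 held a rat far from the others. Chance flags about 1 in 20 groups whose rats share the same level. The 9 rats here span 3 deposit blocks, which differed for most members and so widened the range. That rate therefore does not apply, and a low count does not show that outlying rats are absent. Mrc1 in S.SHR(2) replicate 1, in deposit block 1, lay at a normalized log2 level of 6.61, and the next highest rat at 6.20; the gap was 0.4997 of the whole range, beside a critical value of 0.493. That rat also had the highest GAPDH 3′/5′ ratio of the 18 arrays, 2.51, and the part of the ratio in the value was not tested.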

How the results depend on the processing

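In all, 33 alternatives were run, not all of them for every comparison. The fits of strain with the block added or left out covered only the strain difference over blocks. From block 1 to 3 every alternative run for that comparison kept between 16 and 18 of the 18 Dahl S calls, the 16 where only 16 of them passed a stricter filter. Counts of members called that moved by over 1.5 times: from block 1 to 2 in Dahl S, 7 with only the arrays of the comparison; from block 2 to 3 in S.SHR(2), 9 with arrays centred on medians and 9 with only the arrays of the comparison; in the strain difference, 9 in block 3 and 1 over blocks with array weights. Leaving out each rat gave 7 to 14 members from block 2 to 3 in Dahl S, 3 to 8 in S.SHR(2), and 0 to 1 in the strain difference of block 1, of block 3 and over blocks.

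Counts over all genes moved more. With array weights they were 3055 (Dahl S, block 2 to 3), 1974 and 2755 (S.SHR(2), block 1 to 2 and 2 to 3), 16, 19 and 858 (strain difference in blocks 1, 2 and 3), 233 (over blocks) and 32 (interaction). With only the arrays of the comparison they were 616 (Dahl S, block 1 to 2) and 0 (strain difference, block 1). The strain difference gave 4 genes without the filter, 14 with values as deposited and 17 with the mean of probe sets in block 1; without the trend, 2 in block 2 and 25 in block 3; 174 in block 3 with centred arrays; and 6 over blocks when the block was left out of the fit. Of the alternatives added after seeing the data, leaving out the arrays of highest GAPDH ratio gave 2, 4 and 84 in blocks 1, 2 and 3, and the actin covariate gave 101 in block 3 and 1050 from block 2 to 3 in S.SHR(2). Leaving out each rat gave 673 to 1473 and 1075 to 2238 genes for the steps of Dahl S, 704 to 1350 and 868 to 1886 for those of S.SHR(2), 2 to 10, 2 to 7 and 2 to 139 for the strain difference in blocks 1, 2 and 3, and 0 to 2 for the interaction. The cause of these shifts was not tested.

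The values that changed sign were of members not called in that comparison. From block 1 to 3 these were Lst1 in Dahl S (0.21 with array weights, 0.0093 with the actin covariate), Cd14 in S.SHR(2) (-0.21 with array weights, -0.013 without the arrays of highest GAPDH ratio), Cyba (-0.25) and Ccl2 (-0.047) in S.SHR(2) with the actin covariate. From block 2 to 3 in S.SHR(2), Ptprc was 0.018 with the actin covariate. Laptm5 in the strain difference of block 1 was -0.15 with array weights. Leaving out each rat gave, from block 1 to 3, -0.11 to 0.53 for Adgre1, -0.28 to 0.15 for Cyba and -0.26 to 0.20 for Lst1 in Dahl S, -0.032 to 0.46 for Ccl2 and -0.013 to 0.30 for Cd14 in S.SHR(2), and from block 2 to 3 in S.SHR(2) -0.018 to 0.28 for Ctss. Centring arrays on medians moved the median of all genes by up to 0.10, from block 2 to 3 in S.SHR(2). No paired analysis was possible because the labels give no replicate numbers that the strains share.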
